A study of Mus musculus with 10 samples.

Results

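Collagens and laminins are the trimeric proteins from which most extracellular matrix is built. The genes described here are all protein-coding mouse genes whose symbol is Col, a number, a and a number (44 collagen alpha chains), or Lama, Lamb or Lamc with a number (11 laminin chains). They are 55 of the 46983 genes in the deposited table. Of the 55, 19 encode chains of basement membranes, namely the 8 chains of collagens IV, XV and XVIII and the 11 laminins. The other 36 comprise 11 chains of fibrillar collagens and 25 chains of other collagens. Their messages were measured in CD31+ cells of the heart from 5 mice fed a control diet and 5 mice fed a ketogenic diet for 14 days. All 10 were wild type male C57BL/6J mice, 8 weeks old when they were assigned to a diet at random, and had food and water at will. The control diet supplied 11.6% and the ketogenic diet 89.5% of its energy as fat. Hearts were digested with collagenase and dispase, and cells were captured with an antibody against CD31, a surface protein of endothelial cells, on magnetic beads. Each mouse gave 1 library. The comparison asks whether the ketogenic diet changed the messages for matrix chains, and whether basement membrane chains differed in this from the rest.

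A basement membrane is the thin sheet of matrix on which endothelial cells sit. Laminins, each made of 1 alpha, 1 beta and 1 gamma chain, form one network of the sheet, and collagen IV, a trimer of alpha chains wound into a triple helix, forms the other. Nidogens and the proteoglycan perlecan join the networks, and cells hold on to them through integrins and dystroglycan. Laminins with the alpha4 or alpha5 chain are those typical of vessel walls. Fibrillar collagens such as types I and III form the fibres of the tissue between vessels and are made in the heart mainly by fibroblasts.

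The classes differ in the coding sequences themselves. The triple helix needs glycine at the first place of each triplet of residues, so its messages carry a GGN codon (N, any base) there, in long unbroken runs in most fibrillar chains and with many interruptions in network chains. In the longest coding sequence annotated for each gene in GENCODE M21, the longest unbroken run was 216 to 344 triplets in the 11 fibrillar chains (median 338), shortest in Col24a1 and Col27a1 (216 and 217). It was 30 to 66 triplets in the 8 basement membrane collagens (median 41) and 23 to 113 in the 25 other collagens (median 52), and it did not exceed 3 triplets in the 11 laminins. The stretches below show the pattern, with the GGN codons in capitals. They are the first 15 codons of the longest run in each, which begins at codon 43 of Col4a1 and at codon 168 of Col1a1. Col4a1 is a chain of collagen IV, and Col1a1 is a chain of the fibrillar collagen I.
Col4a1: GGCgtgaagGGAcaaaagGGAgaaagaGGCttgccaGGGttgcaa
Col1a1: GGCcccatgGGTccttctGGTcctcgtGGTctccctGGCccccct
The Col4a1 run ends after 40 triplets and the Col1a1 run after 338.

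Between 10885154 and 12206734 reads were counted on genes in the control mice and between 11108020 and 12710861 in the ketogenic mice. The 55 chains held 0.333% to 0.383% of them. All 10 endothelial markers were present in every mouse, with mean levels from 24.1 RPKM (reads scaled to gene length and library size; Erg) to 161 RPKM (Cdh5). Markers of other heart cells were present too. The mean level reached 140 RPKM for Rgs5 among 8 pericyte markers, 135 RPKM for Acta2 among 6 smooth muscle markers, 124 RPKM for Dcn among 10 fibroblast markers, 67.5 RPKM for Actc1 among 10 cardiomyocyte markers and 78.0 RPKM for the highest of 8 macrophage markers. The levels below are therefore those of a CD31+ fraction that held RNA of several cell types, in which fewer cells of a type and less RNA per cell cannot be told apart. Counts of the most abundant genes levelled off. No gene of at least 500 bases had more than 105.1 reads per 100 possible read starts (each base, on both strands), and 364 genes had a mean above 50. Among the chains Col4a1 was nearest to that ceiling, at 45.2, so levels and differences of the highest chains may be understated. Where the raw count of a gene hardly varied, its normalized count can also fall as the library grows.

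**Figure D1:**
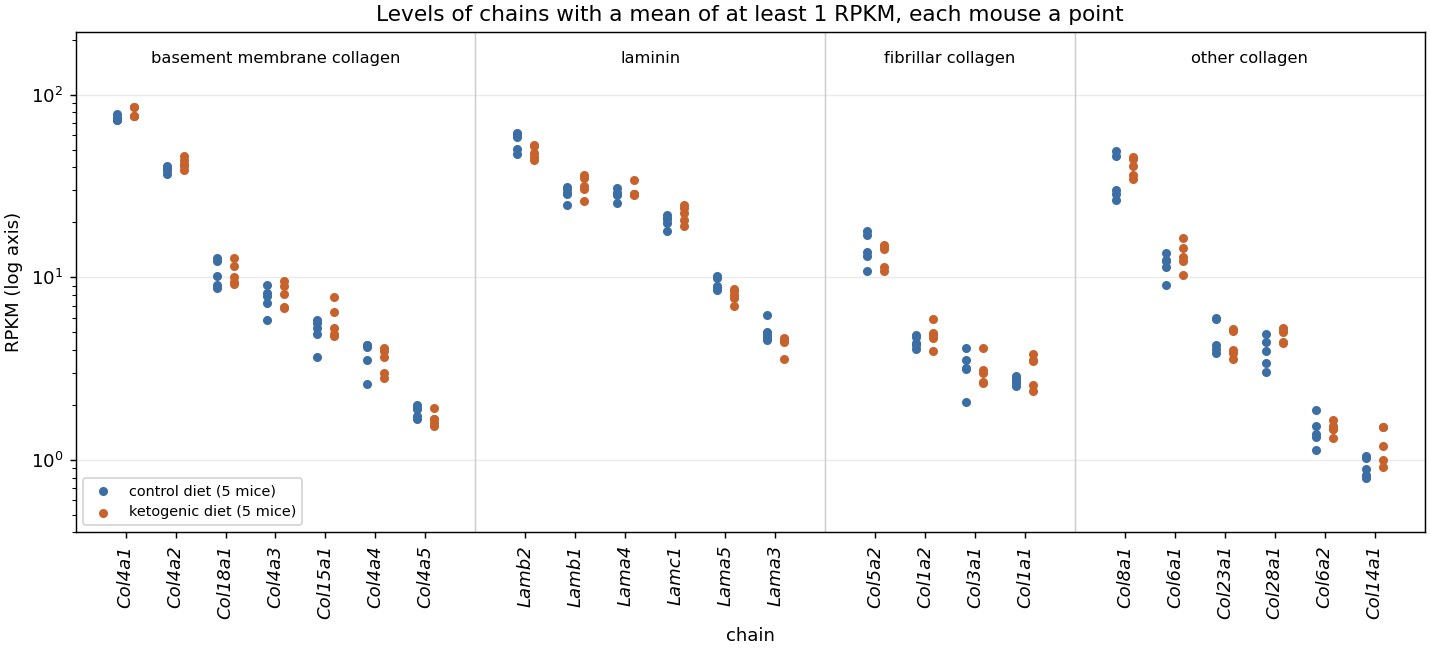
Levels in RPKM, on a log axis, of 23 chains with a mean of at least 1 RPKM, by class. Each point is a mouse, control in blue and ketogenic in orange; Col4a1 stands highest, at 72.7 to 86.2 RPKM, and the diets lie in the same range for most chains.

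Basement membrane chains made up most of the message. Per mouse, the 19 chains summed to 282 to 318 RPKM and the other 36 to 67.9 to 107 RPKM. Of the 10 chains with a mean of at least 10 RPKM, 7 were of the basement membrane. In falling order of mean RPKM over the 10 mice these were Col4a1 at 77.5, Lamb2 at 52.3, Col4a2 at 40.7, Lamb1 at 30.4, Lama4 at 29.1, Lamc1 at 21.3 and Col18a1 at 10.6. The ranges over mice of Lamb1 (24.8 to 36.5 RPKM) and Lama4 (25.6 to 34.2 RPKM) overlapped almost wholly, so their order is not fixed by these mice. The 3 other chains above 10 RPKM were Col8a1 at 38.2, Col5a2 at 13.9 and Col6a1 at 12.5. RPKM divides by the length of all annotated exons, which is 17543 bases for Col1a2 against 7123 for Col1a1. Col1a2 and Col1a1, at 4.66 and 2.93 RPKM, are compared across genes with that limit.

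The diets were compared by edgeR's quasi-likelihood F-test on all 15949 genes with enough reads, with Benjamini-Hochberg adjustment over all of them. Of the 55 chains, 35 could be tested, 17 of the basement membrane and 18 others. The 20 untested chains had at most 34 reads in any mouse and a mean of at most 0.181 RPKM. These were Lama1 and Lamc3 among the basement membrane chains, 4 fibrillar chains (Col2a1, Col11a1, Col11a2 and Col24a1) and 14 other chains, among them Col7a1, Col8a2, Col10a1, Col17a1 and the chains of collagen IX.

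None of the 35 chains passed an adjusted p of 0.05 by edgeR, where 1.34% of all genes tested did. The lowest adjusted p was 0.0882, for Lama5. At an unadjusted p under 0.05, 6 chains differed, against 17.8% of all genes tested. Of these, Lama5, Lamb2, Lamb3 and Lama3 had lower values on the ketogenic diet, in a direction that held 9.26% of all genes with such a p, and Col14a1 and Col28a1 higher ones, in a direction that held 8.57%. DESeq2 called 1 chain, Lama5 (adjusted p = 0.0213), where it called 5.11% of genes. Limma on log2 RPKM called 0. The fitted 95% interval of the log2 fold change lay within 1 of zero for 33 of the 35 chains and within 0.5 for 20. The chains outside 1 were Lamb3 and Col5a1, both with few reads.

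By class, the median log2 fold change, ketogenic over control, was -0.020 for the 17 basement membrane chains and 0.13 for the 18 others, beside -0.0057 for all genes. The value of 0.13 became 0.034 without ketogenic mouse 4 and 0.028 with limma on log2 RPKM plus 1, which shrinks the change of low genes. Higher values were fitted for 8 of the 17 and for 14 of the 18. Within the basement membrane, the 8 collagens had a median of 0.020 and the 9 laminins of -0.16. The 7 fibrillar chains had a median of 0.21, with a range of -0.14 to 0.72, and the 11 other collagens of 0.097. The 4 chains with an unadjusted p under 0.05 in the lower direction were all laminins, 4 of the 9 tested. The ratio of summed basement membrane to other chain RPKM was 3.48 ± 0.58 (SD, n = 5) on the control diet and 3.25 ± 0.25 (SD, n = 5) on the ketogenic diet. On the log2 scale these are 1.78 ± 0.24 and 1.70 ± 0.11, a difference of -0.089 that is smaller than either SD and that ranged from -0.16 (without control mouse 1) to -0.012 (without control mouse 5). The lowest ratio was that of control mouse 1 (2.83) and the highest that of control mouse 5 (4.25). The ketogenic mice, at 2.92 to 3.55, lay within the control range.

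**Figure D2:**
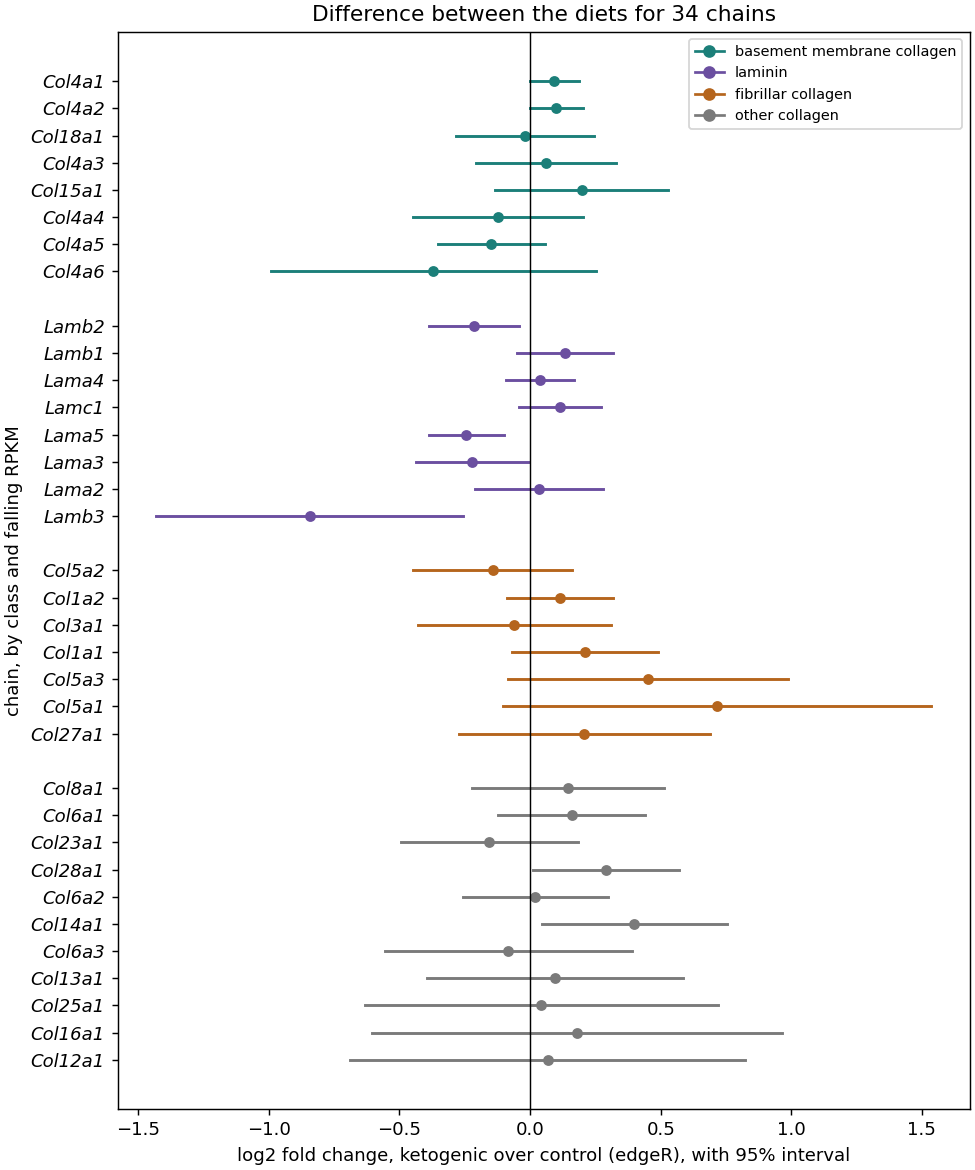
Log2 fold change, ketogenic over control, for 34 of the 35 chains tested, with the 95% interval of the edgeR fit, by class and falling RPKM. The intervals of Lama5, Lamb2, Lamb3 and Lama3 lie below 0 and those of Col14a1 and Col28a1 above it, and none of the 35 passed adjustment over all genes.

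Lama5, the alpha5 chain of vessel laminins, was the chain with the smallest p. Its gene (ENSMUSG00000015647.9) spans chr2:180176373-180225859 on the minus strand (GRCm38, as are all positions here). Counts scaled to the mean library (normalized counts) were 1553, 1506, 1306, 1363 and 1368 in control mice 1 to 5. In ketogenic mice 1 to 5 they were 1165, 1304, 1054, 1266 and 1204. Every ketogenic mouse lay below every control mouse, though by only 2.6 normalized counts between ketogenic mouse 2 and control mouse 3. Lama5 was the only tested chain whose diets did not overlap, where 4.34% of all genes tested had no overlap, 1.94% with the ketogenic mice lower and 2.4% with them higher. The means were 1419 ± 105 and 1199 ± 97 (SD, n = 5 each), a log2 fold change of -0.24 (SE 0.066, 95% interval -0.39 to -0.10, edgeR adjusted p = 0.0882). An exact two-sided permutation test of log2 CPM gave p = 0.00794 for this chain alone, the smallest that the splits of 10 mice into 5 and 5 can give. Over the 22 alternatives the log2 fold change ranged from -0.28 to -0.17 and the adjusted p from 0.0213 to 0.441.

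Of 10 markers of cardiomyocytes, 7 had an unadjusted p under 0.05, all with higher values on the ketogenic diet, where 8.57% of all genes had such a p in that direction. By edgeR 0 of the 10 passed adjustment, and 1, Nppa, had a lower value (-0.49). Their summed level was 164 to 219 RPKM in control and 198 to 264 RPKM in ketogenic mice, and none was at 0. With each mouse's mean z-score of these markers (the cardiomyocyte score) added to the fit, the log2 fold change of Lama5 was -0.17 (edgeR adjusted p = 0.441), that of Lamb2 -0.054 and that of Lamb3 -1.03. With the same score of the fibroblast markers instead, the values were -0.22, -0.17 and -0.89. The cardiomyocyte score was -1.4 to 0.29 in control and -0.57 to 1.29 in ketogenic mice, so it went partly with diet. In 10 mice its term and that of diet are not well separated. Values with this score in the fit, here and below, are therefore not diet effects freed of cell make-up. The 10 fibroblast markers summed to 324 to 364 RPKM in control and 315 to 376 RPKM in ketogenic mice, with an unadjusted p under 0.05 for 0 of 10. Dcn, Lum and Gsn held most of that sum and had 72.2, 49.0 and 43.9 reads per 100 possible read starts, so the sum can hide a difference. Log2 fold changes of the less abundant ones were mixed. They were Pdgfra 0.31, Dpt 0.43, Tcf21 0.19, Fbln1 0.47, Pi16 0.17, Mfap5 0.0087 and Ogn -0.49.

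The other alpha chains did not follow one direction. Lama4, the alpha4 chain of most vessels, was at 5555, 5666, 5688, 5045 and 6016 normalized counts in control mice and at 5555, 5535, 5494, 6630 and 5507 in ketogenic mice. Without ketogenic mouse 4, which stood apart, its log2 fold change of 0.038 (SE 0.059, edgeR adjusted p = 0.775) became -0.018. Lama3, an alpha chain of epithelial laminin, was chosen after its values were seen; it was at 607, 772, 569, 638 and 581 normalized counts in control and 584, 568, 550, 444 and 571 in ketogenic mice. Its log2 fold change was -0.22 (SE 0.10, edgeR adjusted p = 0.261), and the diets overlapped. Over the 22 alternatives it ranged from -0.26 to -0.047, the latter with the cardiomyocyte score in the fit, and the adjusted p from 0.225 to 0.885. Lama2, the alpha chain of muscle laminin, held under 1 RPKM and had a log2 fold change of 0.035 (SE 0.11). Lama1, an embryonic chain, had at most 8 reads.

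**Figure D3:**
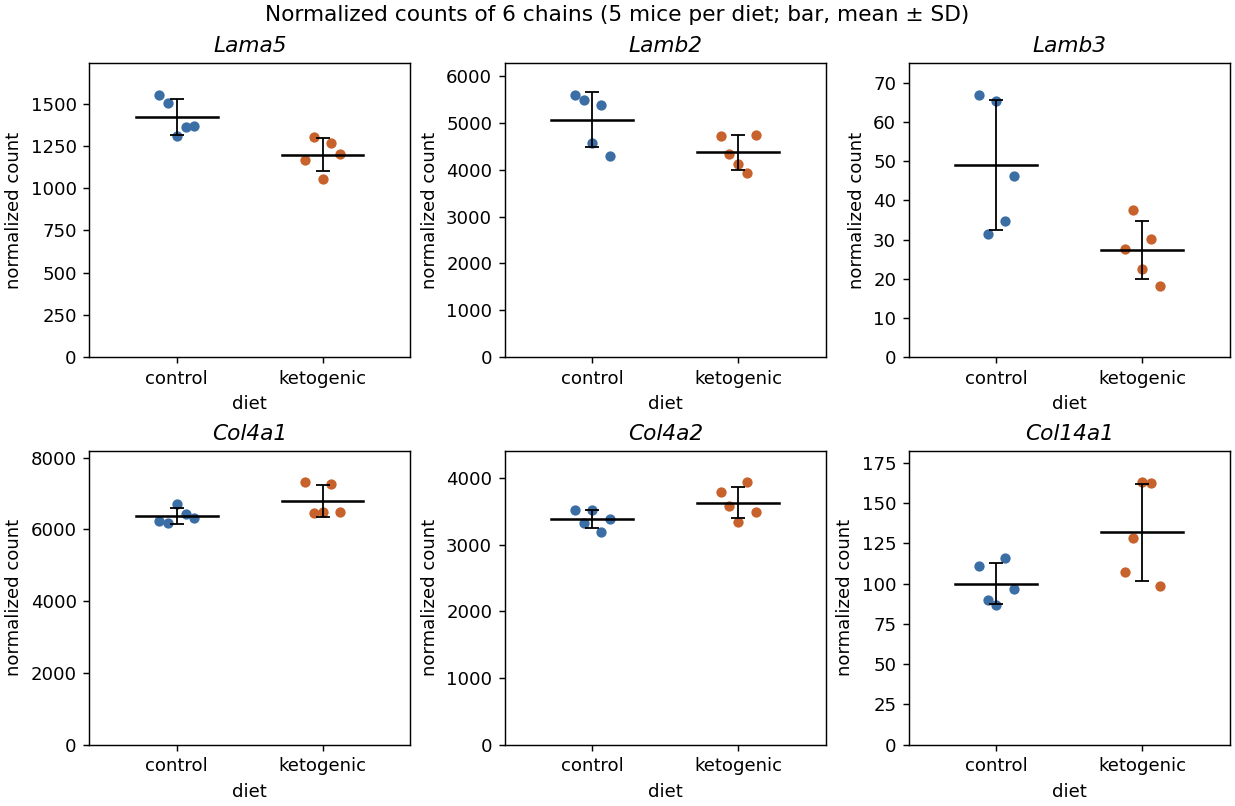
Normalized counts of 6 chains in each of 5 control (blue) and 5 ketogenic (orange) mice, with the mean as a line and the SD as a bar. Lama5 is the only one of these without overlap, at 1306 to 1553 against 1054 to 1304; the ketogenic means are lower for Lama5, Lamb2 and Lamb3 and higher for Col4a1, Col4a2 and Col14a1.

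The beta chains Lamb1 and Lamb2 pair with the same alpha and gamma chains. Lamb2 (ENSMUSG00000052911.9, chr9:108479736-108490530) was at 5602, 5491, 4568, 5388 and 4301 normalized counts in control mice and at 4729, 4335, 4114, 3923 and 4743 in ketogenic mice. Control mice 3 and 5 lay within the ketogenic range. Its log2 fold change was -0.21 (SE 0.080, 95% interval -0.39 to -0.041, edgeR adjusted p = 0.189). Lamb1 was at 4894, 4567, 4643, 3997 and 4971 normalized counts in control mice and at 5557, 4154, 4828, 5779 and 5004 in ketogenic mice, a log2 fold change of 0.13 (SE 0.08, edgeR adjusted p = 0.429). The ketogenic mice held both the highest values and one near the lowest, mouse 2.

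Lamb3, the beta chain of an epithelial laminin, had 20 to 63 reads per mouse. Its normalized counts were 67.0, 31.5, 65.2, 34.7 and 46.3 in control and 27.6, 37.6, 22.6, 30.1 and 18.2 in ketogenic mice. The difference was the largest fitted among the chains, with a log2 fold change of -0.84 (SE 0.27, 95% interval -1.43 to -0.26, edgeR adjusted p = 0.138), and control mice 2 and 4 overlapped the ketogenic range. Its gene overlaps 4 annotated genes on the other strand, Hsd11b1 and G0s2 among them, and the libraries did not record the strand, so its reads cannot be told from theirs where they overlap.

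Lamc1, the gamma chain shared by most laminins, was at 2528, 2633, 2670, 2282 and 2766 normalized counts in control mice and at 3030, 2602, 2403, 3108 and 2815 in ketogenic mice. The diets overlapped, with a log2 fold change of 0.12 (SE 0.07, edgeR adjusted p = 0.427), or 0.18 with the cardiomyocyte score in the fit. Lamc1 was 92.6% to 97.6% of the gamma chain RPKM in every mouse.

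These levels set the make-up of laminin messages, given here as shares of RPKM with no test. Among alpha chains, Lama4 was 65.3% ± 2.3 on the control and 69.2% ± 2.2 on the ketogenic diet, Lama5 21.2% ± 1.4 and 18.5% ± 1.2, and Lama3 11.5% ± 1.4 and 10.3% ± 1.5 (SD, n = 5 each). The Lama4 to Lama5 ratio was 2.79, 2.94, 3.40, 2.89 and 3.43 in control mice and 3.72, 3.31, 4.07, 4.09 and 3.57 in ketogenic mice, so that only ketogenic mouse 2 lay within the control range. Among beta chains Lamb1 was 34.0% ± 3.9 and 39.5% ± 3.8. It was lowest in control mouse 4 (29.5%) and highest in ketogenic mouse 4 (45.3%), and the diets overlapped. Corrected for read starts in use, the Lama4 to Lama5 ratio was 3.28 ± 0.34 and 4.03 ± 0.38 (SD, n = 5 each).

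**Figure D4:**
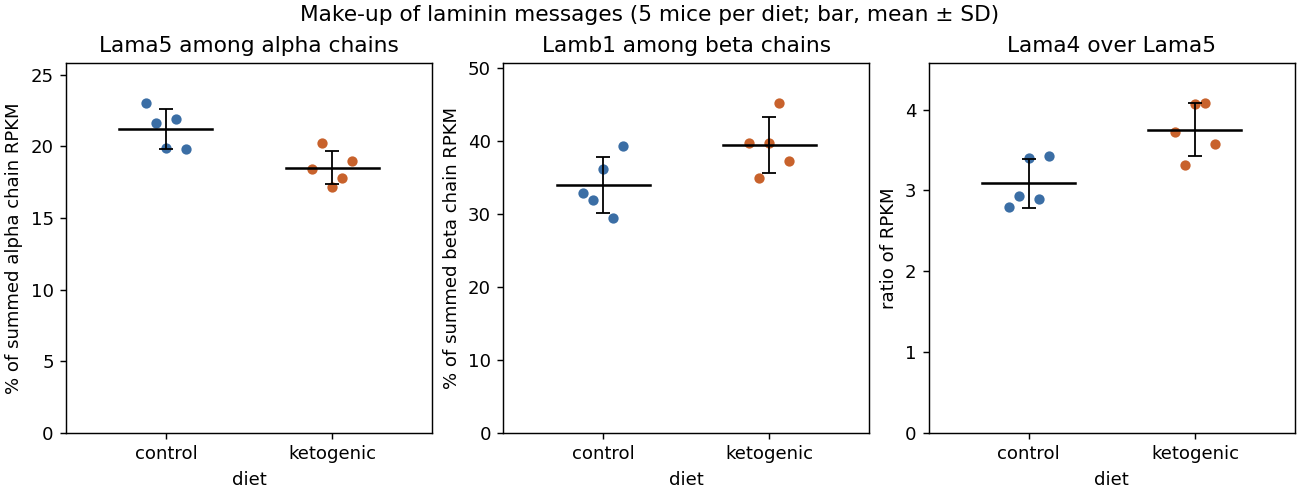
Share of Lama5 in the summed RPKM of the 5 alpha chains, share of Lamb1 in that of the 3 beta chains, and the ratio of Lama4 to Lama5 RPKM, per mouse, with mean and SD. The mean Lama5 share is 21.2% on the control and 18.5% on the ketogenic diet, and the diets overlap in all 3 panels.

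Col4a1 and Col4a2, the chains of the common collagen IV trimer, did not pass the test. Col4a1 (ENSMUSG00000031502.9, chr8:11198423-11312826, minus strand) was at 6240, 6167, 6715, 6433 and 6318 normalized counts in control mice and at 7318, 6452, 6483, 7257 and 6493 in ketogenic mice. Col4a2 (ENSMUSG00000031503.13, chr8:11312805-11449287, plus strand) was at 3515, 3321, 3517, 3191 and 3376 in control and 3791, 3582, 3339, 3934 and 3494 in ketogenic mice. Ketogenic mice 1 and 4 were above all control mice for both chains. Ketogenic mouse 2 was above them for Col4a2 only, and ketogenic mice 3 and 5 for neither chain. The log2 fold changes were 0.093 (SE 0.043, edgeR adjusted p = 0.285) and 0.10 (SE 0.047, edgeR adjusted p = 0.285), with 95% intervals that end at 0.19 and 0.20. With counts corrected for read starts in use the values were 0.15 and 0.12.

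The trimer of these chains holds Col4a1 and Col4a2 in a ratio of 2 to 1. Per mouse the ratio of their RPKM was 1.80 to 2.05, with a mean of 1.91 ± 0.09 on the control and 1.90 ± 0.06 on the ketogenic diet (SD, n = 5 each). Corrected for read starts it was 2.03 to 2.37. The ratio thus differed between the diets by less than its spread on either scale.

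Their genes lie head to head on chromosome 8 and share 22 bases at their annotated starts. The same arrangement holds for Col4a4 and Col4a3 on chromosome 1, whose starts have 71 bases between them, and for Col4a6 and Col4a5 on the X chromosome, with 1308. The windows from 250 bases before to 50 after the start, taken from RefSeq (GRCm38.p6), are printed for Col4a1 and Col4a4, the minus strand member of the 2 closest pairs, since a window of this length spans the start of the partner as well. Capitals mark the letters CCAAT and GGGCGG and their reverse complements ATTGG and CCGCCC. The first window is chr8:11312777-11313076 and the second chr1:82586800-82587099, both on the minus strand.
Col4a1: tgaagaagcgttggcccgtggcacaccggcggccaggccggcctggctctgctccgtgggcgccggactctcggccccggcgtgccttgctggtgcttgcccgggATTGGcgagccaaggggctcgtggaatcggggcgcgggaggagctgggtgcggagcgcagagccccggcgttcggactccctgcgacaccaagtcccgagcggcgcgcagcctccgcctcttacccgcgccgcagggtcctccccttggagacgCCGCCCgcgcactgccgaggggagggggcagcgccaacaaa
Col4a4: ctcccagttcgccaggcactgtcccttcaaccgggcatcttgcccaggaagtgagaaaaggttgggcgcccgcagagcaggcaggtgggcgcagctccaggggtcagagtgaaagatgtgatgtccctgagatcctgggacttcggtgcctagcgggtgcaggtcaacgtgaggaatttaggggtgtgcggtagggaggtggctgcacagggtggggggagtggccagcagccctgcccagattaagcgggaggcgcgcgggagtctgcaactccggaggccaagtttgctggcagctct
The Col4a1 window holds 1 CCAAT and 1 GGGCGG match on either strand, and the Col4a4 window neither. A window was found for 40 of the 55 chains. GGGCGG or its reverse complement occurred in 25 of the 40 (62.5%), against 35.9% of the windows of 27025 genes. CCAAT occurred in 32.5% against 37.9%, and TATAAA or TTTATA in 12.5% against 14.2%. The windows were not matched for GC content. It was 37.7% to 75.0% in the windows of the chains, in most of them above 52.7%, the median over all windows. The motifs do not overlap each other, and a match is a description of letters only.

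Col4a3 and Col4a4, chains of the collagen IV of kidney, lung and a few other basement membranes, were expressed in these cells at 7.86 and 3.64 RPKM. Col4a3 (ENSMUSG00000079465.8) was at 954, 760, 1190, 1086 and 1031 normalized counts in control mice and at 887, 1053, 1238, 1162 and 895 in ketogenic mice, with a log2 fold change of 0.060 (SE 0.12, edgeR adjusted p = 0.836). For Col4a4 it was -0.12 (SE 0.15, edgeR adjusted p = 0.706). Within both diets the mice ranged widely, and control mouse 2 was lowest for each chain. The X-linked pair was lower in level, with Col4a5 at 1.76 and Col4a6 at 0.374 RPKM, and had log2 fold changes of -0.15 (SE 0.094) and -0.37 (SE 0.29).

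Whether partner chains went together from mouse to mouse was tested for 10 pairs, by permutation over 10 mice with adjustment over the pairs. Points share a library and its scaling. Col4a3 and Col4a4 had a Pearson r of 0.878 (permutation test, adjusted p = 0.008) and a Spearman rho of 0.721 (adjusted p = 0.115). Without the 2 mice farthest from the median of Col4a3, r was 0.857, and for deviations from the diet means it was 0.945. Lamb1 and Lamc1 had an r of 0.829 (permutation test, adjusted p = 0.0184) and a rho of 0.818 (adjusted p = 0.0519), with an r of 0.595 without the 2 farthest mice. For Col4a1 and Col4a2 r was 0.812 (permutation test, adjusted p = 0.0217) and rho 0.685 (adjusted p = 0.115). It rested on 2 mice, since without them r was 0.27. The other 7 pairs did not pass adjustment. Among them, Col6a1 and Col6a2, which share a trimer, had an r of 0.135 (permutation test, adjusted p = 0.72), and Col5a1 and Col5a2 one of -0.523 (adjusted p = 0.151).

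**Figure D5:**
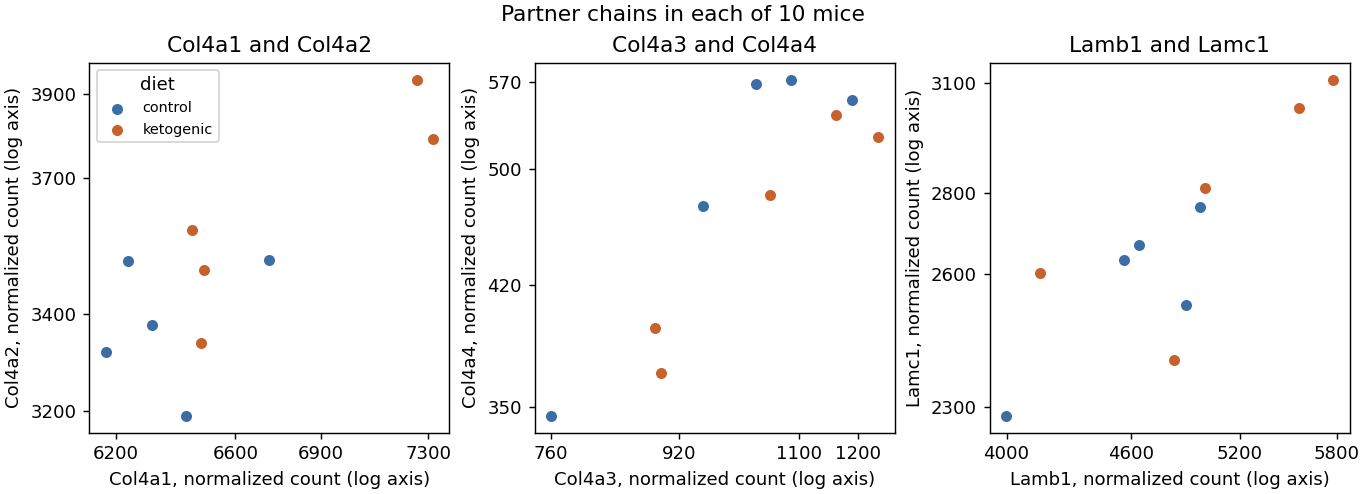
Normalized counts, on log axes, of 3 pairs of partner chains, each point a mouse, control in blue and ketogenic in orange. Col4a3 and Col4a4 rise together over all 10 mice (Pearson r of 0.878 on log2 CPM), while the relation of Col4a1 and Col4a2 rests on 2 ketogenic mice.

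Of the remaining basement membrane collagens, Col18a1, whose C-terminal fragment is endostatin, was at 1701, 1621, 1347, 1165 and 1204 normalized counts in control mice and at 1678, 1204, 1325, 1228 and 1503 in ketogenic mice. The diets shared nearly the same range, with a log2 fold change of -0.020 (SE 0.12, edgeR adjusted p = 0.951). That of Col15a1, its close relative, was 0.20 (SE 0.15, edgeR adjusted p = 0.524).

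The fibrillar chains were low beside those of the basement membrane, with the exception of Col5a2. Col5a2 was at 2481, 2338, 1879, 1809 and 1475 normalized counts in control mice and at 2049, 1467, 1941, 1549 and 2028 in ketogenic mice. Control mice 1 and 2 were highest and the other 8 mice were mixed by diet, with a log2 fold change of -0.14 (SE 0.14, edgeR adjusted p = 0.626). Col5a1, its partner in collagen V, had only 8 to 40 reads, so that Col5a2 exceeded it 26.2 to 229 times in RPKM. Its log2 fold change was 0.72 (SE 0.38, 95% interval -0.10 to 1.53, edgeR adjusted p = 0.347). Col5a3 and Col27a1 had 25 to 95 reads and log2 fold changes of 0.45 (SE 0.25) and 0.21 (SE 0.22).

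The chains of collagens I and III, the main fibres of heart tissue, stayed between 2 and 6 RPKM. Col1a1 was at 232, 218, 239, 213 and 227 normalized counts in control mice and at 316, 198, 213, 288 and 293 in ketogenic mice. Ketogenic mice 1, 4 and 5 were above all controls and mouse 2 below them, and the log2 fold change was 0.21 (SE 0.13, edgeR adjusted p = 0.418). Col1a2 was at 1001, 967, 834, 909 and 867 in control and 1202, 1012, 806, 987 and 949 in ketogenic mice, a log2 fold change of 0.11 (SE 0.09, edgeR adjusted p = 0.55). Col3a1 was at 563, 476, 425, 438 and 282 in control and 359, 419, 404, 553 and 359 in ketogenic mice, a log2 fold change of -0.060 (SE 0.17, edgeR adjusted p = 0.885). In both chains the diets overlapped over most of their range. With the cardiomyocyte score in the fit the values of Col1a1 and Col1a2 were 0.34 and 0.31, and over the 22 alternatives the adjusted p of Col1a2 was 0.151 to 0.843. With the fibroblast score in the fit the values of Col1a1, Col1a2 and Col3a1 were 0.23, 0.15 and -0.083. The fibroblast markers Dcn and Lum were at 124 and 84.2 RPKM in the same libraries, and the part of fibroblasts in the levels of these chains was not tested.

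Among the other collagens the network-forming chain Col8a1, found in the matrix of vessels, was highest. It was at 2966, 2738, 1709, 1805 and 1583 normalized counts in control mice and at 2728, 2045, 2410, 2145 and 2624 in ketogenic mice. Control mice 1 and 2 stood above all others and the remaining 3 controls below all ketogenic mice, so the spread within the control diet exceeded the log2 fold change of 0.15 (SE 0.17, edgeR adjusted p = 0.685). With the cardiomyocyte score in the fit the value was 0.51, the adjusted p over the 22 alternatives being 0.247 to 0.906. Col8a2, its usual partner, had at most 4 reads in any mouse. Col6a1, of the beaded filaments of collagen VI, was at 805, 729, 722, 679 and 532 in control and 847, 717, 956, 751 and 599 in ketogenic mice, a log2 fold change of 0.16 (SE 0.13, edgeR adjusted p = 0.552).

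Col14a1 and Col28a1 were the chains with the smallest p in the higher direction. Col14a1, a collagen that binds to fibrils (ENSMUSG00000022371.15, chr15:55307750-55520803), was at 111, 89.6, 87.0, 116 and 96.6 normalized counts in control mice and at 108, 129, 163, 162 and 98.4 in ketogenic mice. Ketogenic mice 2, 3 and 4 were above all controls and the other 2 among them, and the log2 fold change was 0.40 (SE 0.16, edgeR adjusted p = 0.225). It was 0.14 with the cardiomyocyte score and 0.29 with the fibroblast score in the fit. Col28a1 (ENSMUSG00000068794.6, chr6:7997808-8192617) was at 297, 266, 238, 183 and 203 in control and 265, 315, 311, 301 and 262 in ketogenic mice, with a log2 fold change of 0.29 (SE 0.13, edgeR adjusted p = 0.258). Control mice 1 and 2 lay within the ketogenic range.

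Col23a1, a membrane-spanning collagen, was at 298, 268, 415, 414 and 284 normalized counts in control mice and at 249, 276, 362, 352 and 267 in ketogenic mice. The log2 fold change of -0.16 (SE 0.16, edgeR adjusted p = 0.634) was the lowest among the 18 chains outside the basement membrane, and adding the cardiomyocyte score made it -0.52. The remaining 6 tested chains of this class had mean levels of at most 1.47 RPKM and log2 fold changes from -0.084 (Col6a3) to 0.18 (Col16a1).

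Genes that handle the chains or bind them were counted in lists of related genes. Of 30 tested genes for collagen folding, processing and crosslinking, 1 rose and 1 fell, beside 0.809% and 0.527% of all genes. Adamts2, the protease that removes the N-terminal propeptide of fibrillar procollagens, was at 96.1, 55.3, 75.6, 60.0 and 73.4 normalized counts in control mice and at 113, 157, 121, 152 and 158 in ketogenic mice. The diets did not overlap (as in 2.4% of all genes in that direction), and the log2 fold change was 0.96 (SE 0.17, edgeR adjusted p = 0.019). P4ha2, a subunit of prolyl 4-hydroxylase, which modifies the triple helix, was at 3304, 3264, 3374, 3269 and 3195 in control and 2897, 2802, 2350, 2363 and 2918 in ketogenic mice. It fell without overlap (as in 1.94% of all genes in that direction), with a log2 fold change of -0.30 (SE 0.06, edgeR adjusted p = 0.0432). The list's median log2 fold change was -0.030.

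Of 13 tested genes for matrix breakdown and its inhibitors, 0 rose and 1 fell, beside 0.809% and 0.527% of all genes. Mmp19, a metalloproteinase that cleaves basement membrane proteins, was at 126, 169, 185, 179 and 139 normalized counts in control mice and at 113, 93.1, 108, 105 and 106 in ketogenic mice. The diets did not overlap (as in 1.94% of all genes in that direction), with a log2 fold change of -0.61 (SE 0.12, edgeR adjusted p = 0.0393). Timp3, an inhibitor of metalloproteinases, had -0.10 (SE 0.04, edgeR adjusted p = 0.187). Its raw counts hardly varied, at 5882 to 6299, so this value can follow library size. Macrophages are among the cells known to make metalloproteinases; the 8 macrophage markers summed to 94.0 to 337 RPKM in control and 73.8 to 142 RPKM in ketogenic mice. The 337 was that of control mouse 1, and the other 4 controls reached 149. Of the 8, 4 had an unadjusted p under 0.05 (Cd68, Adgre1, Lyz2 and C1qa), all with lower values on the ketogenic diet, where 9.26% of all genes had such a p in that direction. By edgeR 0 of the 8 passed adjustment, and Cd163 (0.20) and Mrc1 (0.32) had higher values. Control mouse 1 had 2374 normalized counts of Adgre1 and 323 of C1qa, against at most 612.5 and 31.2 in the other controls. The part of macrophages in the results for Mmp19 and the laminins was not tested. The same holds for Wt1, the 1 gene of the mesothelial list with enough reads, at -0.36 (SE 0.13, edgeR adjusted p = 0.17). Its mean was 8.84 RPKM, against at most 0.13 for Msln, Upk3b and Upk1b of that list. Which cells held Wt1 was not tested.

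In the other lists edgeR called 0 genes. Of 17 tested partners of the basement membrane, 3 had an unadjusted p under 0.05, a share near the 17.8% of all genes. The 2 with the smallest were Nid1, the nidogen that links laminin to collagen IV, with a log2 fold change of 0.17 (SE 0.05, edgeR adjusted p = 0.136), and the heparan sulfate proteoglycan Agrn, with -0.12 (SE 0.04, edgeR adjusted p = 0.173), at 1771 to 2024 normalized counts in ketogenic and 2034 to 2209 in control mice. Of 13 receptors of laminin and collagen, 2 had such a p, both integrin alpha subunits, again a share near that of all genes. Itga3, of a laminin receptor, was at 369 to 419 normalized counts in ketogenic and 446 to 557 in control mice, without overlap (as in 1.94% of all genes in that direction), at a log2 fold change of -0.31 (SE 0.08, edgeR adjusted p = 0.068). Itga2, of a collagen receptor, had -0.67 (SE 0.24, edgeR adjusted p = 0.174). Of 16 genes for TGF-beta ligands, receptors and CCN factors, known regulators of collagen genes, 6 had an unadjusted p under 0.05. Among all genes tested 17.8% had such a p, 8.57% with higher and 9.26% with lower values. Of the 6, 2 had higher and 4 lower values. The 2 with the smallest were Tgfb2, with a log2 fold change of 0.51 (SE 0.13, edgeR adjusted p = 0.0698), and Tgfbr2, with 0.21 (SE 0.05, edgeR adjusted p = 0.0729). The other 4, Tgfb1, Tgfb3, Ltbp1 and Ltbp4, had lower values, from -0.46 (Tgfb1) to -0.082 (Ltbp4). Raw counts hardly varied for Ltbp4 (3094 to 3277) and Ccn1 (3839 to 3987), so their small negative values can follow library size. Over the list the median was -0.11, with 11 of 16 genes lower, Ltbp4 and Ccn1 among them.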

How the data were processed

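RNA of CD31+ heart cells from 10 mice, 5 per diet, was made into 1 library per mouse with SMART-Seq v4, a kit that does not record the strand, and sequenced as single reads of 50 bases. The submitters' processing notes name bcl2fastq 2.17.1.14, STAR 2.3, HTSeq 0.6.0 and mm10. The annotation release and any removal of duplicate reads are not given in the sources used here. The authors deposited raw counts per gene and RPKM values, which scale those counts to gene length and library. Symbols and positions came from GENCODE M21, in which 46488 of 46983 identifiers were found without regard to version.

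Counts were tested with edgeR 4.0.16 in R 4.3.3 (TMM, filterByExpr, quasi-likelihood F-test). SE is the log2 fold change over the square root of F. DESeq2 1.42.0 and limma 3.58.1 were alternatives, with other scalings, other filters, limma on log2 RPKM plus 1 or 0.1, a replicate block, marker score covariates, counts corrected for read starts, and each mouse left out in turn. Chains with values in every mouse were the 4 of highest RPKM per class and the 3 of smallest p in each direction, and in the related lists the genes called and the 2 of smallest p were named. Lama3 was added after its values were seen. Values of 1 chain are not reported here. The members and lists were chosen with earlier results of these data known. Each mouse was treated as a replicate. At these depths the interval of a difference widens as a chain's reads become few.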

Additional observations from a re-analysis of the deposited data

Results flagged for a closer look

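In 74 groups of 5 mice (34 chains, the summed RPKM of basement membrane and of other chains and the log2 ratio of the sums, in each diet), 4 had a mouse set apart by Dixon's criterion (gap over range above 0.71), where chance gives about 3.7. Ketogenic mouse 4 was the outlying one in 3 of them. It was high for Lama4, at 6630 normalized counts against 5494 to 5555 in the other 4 (gap over range 0.946). It was also high for Col27a1, a fibrillar collagen, at 63.2 against 34.5 to 41.9 (0.742), and low for Lama3, at 444 against 550 to 584 (0.755). Control mouse 2 was low for Col13a1, at 12.4 against 20.1 to 23.2 (0.717).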

How the results depend on the processing

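Over 22 alternatives, edgeR and limma called 0 chains in each, and DESeq2 called 1, Lama5. The calls among all genes, 213, became 815 with DESeq2, 113 with the replicate block and 45 with the cardiomyocyte score in the fit, and lay between 86 and 492 when a mouse was left out. The highest was without ketogenic mouse 2 and the lowest without control mouse 2. The median of the basement membrane chains became -0.12 with no filter on low counts, with 19 chains in it. The replicate numbers did not pair the mice (correlations of same-numbered mice from -0.13 to 0.094), and the block called 0 chains.

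Of 416 fold changes of the 19 chains named by rule, 14 turned their sign, in 5 chains. Col18a1 became 0.046 with the fibroblast and 0.24 with the cardiomyocyte score, and Col4a3 -0.022 and -0.27. Col5a2 became 0.083 with the cardiomyocyte score. When a mouse was left out, Col18a1 ranged from -0.094 to 0.057, Col4a3 from -0.021 to 0.13, Col3a1 from -0.18 to 0.047 and Lama4 from -0.018 to 0.066. None of these 5 was called in any setting, and the cause was not tested. With 5 mice per diet and a common coefficient of variation of 0.13, each chain's printed interval shows what size of difference the data leave possible.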
